A study of Mus musculus with 36 samples.

Results

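Histone H2A carrying a single ubiquitin (H2AK119ub1) was compared between hippocampal neurospheres and hippocampal tissue of control (Ctrl) mice at postnatal day 0 (P0), by chromatin immunoprecipitation sequencing (ChIP-seq). These are 4 of the 24 libraries with an island file among the 36 samples of the series, 2 from neurospheres (NS) and 2 from hippocampus (HP), chosen by mark, genotype and source. The series also holds input DNA, the histone marks H3K27me3 and H3K36me2, and conditional knockouts (cKO) that lost the CxxC domain of KDM2B. Ctrl mice of both sources carried the genotype Kdm2bfl/+ or Kdm2bfl/fl, with no Cre named on their labels, so that 1 or both *Kdm2b* alleles had loxP sites around the exon for the CxxC domain. Hippocampi were dissociated whole and hold progenitors, neurons and non-neural cells. Neurospheres were neural progenitor cells (NPCs) enriched from P0 hippocampi and passaged as floating cultures in medium with FGF2 and EGF. The 2 sources therefore differ in cell make-up as well as in culture, and in such bulk samples fewer cells carrying the mark and less mark per cell cannot be told apart. Labels do not say how many animals gave each library, so p-values measure the spread between these libraries only.

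H2AK119ub1 is placed by Polycomb repressive complex 1 (PRC1), whose catalytic subunits are RING1A and RING1B. KDM2B belongs to a variant PRC1 and, through its CxxC zinc finger, binds unmethylated CpG-rich DNA, which is common at promoters of developmental genes. At such promoters the mark usually lies beside H3K27me3, the mark of Polycomb repressive complex 2 (PRC2), and it is known for keeping genes of other lineages silent in neural progenitors.

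The files list islands, which are stretches where SICER found more reads than in input, each with its read count. A promoter was the start site of a protein-coding gene plus or minus 2 kb in mm10, and it was called in a library when at least 1 bp lay in an island. Among 20807 autosomal promoters, 985 were called in both NS and neither HP library, 78 in both HP and neither NS library, and 540 in all 4. The first class makes up 4.73% of all promoters, the second 0.375% and the third 2.6%. When each library was cut to the same covered length, keeping the islands with the most counts per kb, the classes held 230, 203 and 274 promoters (1.11%, 0.976% and 1.32%). There were 108, 22 and 274 promoters in the same class both ways. For the shared class this is fixed by the method, since the cut only removes islands and a promoter shared after it was shared before.

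Start sites of 1 CpG-rich and 1 CpG-poor promoter of each class are shown to let the base composition be read directly. They are the best covered of their kind among the promoters named here, from 250 bases before to 50 bases from the start site, on the strand of the gene, in GRCm38.p6 (mm10), with CpG dinucleotides in capitals. CpG-rich means over 50% GC and an observed over expected CpG ratio above 0.6 in 1 kb around the start. The first pair was called in neurospheres only.
Plppr3, chr10:79874585-79874884, - strand, 23 CpG: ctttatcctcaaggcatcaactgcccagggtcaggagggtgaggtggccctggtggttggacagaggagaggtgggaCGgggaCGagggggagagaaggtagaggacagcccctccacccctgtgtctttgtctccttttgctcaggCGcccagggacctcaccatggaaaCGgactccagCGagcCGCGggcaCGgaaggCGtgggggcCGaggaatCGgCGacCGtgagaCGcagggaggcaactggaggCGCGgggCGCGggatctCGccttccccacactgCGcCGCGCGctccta
Dqx1, chr6:83057594-83057893, + strand, 1 CpG: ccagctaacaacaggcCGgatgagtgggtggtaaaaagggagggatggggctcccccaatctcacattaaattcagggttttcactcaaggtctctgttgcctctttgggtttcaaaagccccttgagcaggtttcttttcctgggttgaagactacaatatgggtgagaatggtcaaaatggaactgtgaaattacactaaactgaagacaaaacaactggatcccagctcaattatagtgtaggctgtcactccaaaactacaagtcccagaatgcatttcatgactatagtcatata
The next pair was called in hippocampus only.
Tbx3, chr5:119670419-119670718, + strand, 29 CpG: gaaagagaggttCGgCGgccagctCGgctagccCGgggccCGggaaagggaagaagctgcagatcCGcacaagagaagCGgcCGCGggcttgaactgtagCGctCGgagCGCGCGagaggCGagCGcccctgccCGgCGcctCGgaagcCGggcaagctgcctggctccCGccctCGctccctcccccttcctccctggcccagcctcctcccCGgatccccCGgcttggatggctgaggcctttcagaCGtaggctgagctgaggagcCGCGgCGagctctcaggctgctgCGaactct
Dlk1, chr12:109452573-109452872, + strand, 9 CpG: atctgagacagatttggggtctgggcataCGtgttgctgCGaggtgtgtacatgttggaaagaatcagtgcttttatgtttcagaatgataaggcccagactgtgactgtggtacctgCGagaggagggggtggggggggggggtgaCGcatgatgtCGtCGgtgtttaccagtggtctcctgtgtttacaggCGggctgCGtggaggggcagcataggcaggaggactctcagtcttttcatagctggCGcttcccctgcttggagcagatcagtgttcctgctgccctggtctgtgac
The last pair was called in all 4 libraries.
Dmbx1, chr4:115939877-115940176, - strand, 30 CpG: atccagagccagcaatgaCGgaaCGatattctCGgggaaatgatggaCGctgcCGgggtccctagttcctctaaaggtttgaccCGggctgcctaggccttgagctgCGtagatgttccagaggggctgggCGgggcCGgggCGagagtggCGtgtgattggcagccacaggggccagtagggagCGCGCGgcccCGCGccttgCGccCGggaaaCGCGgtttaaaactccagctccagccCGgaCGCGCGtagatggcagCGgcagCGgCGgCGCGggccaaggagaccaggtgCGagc
Hoxd12, chr2:74674763-74675062, + strand, 13 CpG: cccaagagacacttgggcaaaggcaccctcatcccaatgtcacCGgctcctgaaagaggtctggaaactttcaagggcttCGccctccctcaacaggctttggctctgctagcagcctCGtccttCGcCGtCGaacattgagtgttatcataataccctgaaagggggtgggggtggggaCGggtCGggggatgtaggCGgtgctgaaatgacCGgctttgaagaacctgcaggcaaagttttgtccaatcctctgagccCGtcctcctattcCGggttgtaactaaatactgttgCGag

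CpG-rich promoters made up the highest share in the shared class. Of the 540 shared promoters 67.8% were CpG-rich, against 45.7% of all promoters. The share was 47.9% for neurospheres only and 48.7% for hippocampus only. In the 300-base window the median number of CpG was 18 for the shared class, 13 for neurospheres only, 18 for hippocampus only and 12 for all promoters. At equal covered length the CpG-rich share was 70.8%, 50.4% and 58.1% in the shared, neurosphere and hippocampus classes.

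The libraries differed as much within a source as between sources in how much was called. Autosomal islands numbered 17032 and 26404 in HP replicates 1 and 2, and 43160 and 20920 in NS replicates 1 and 2. Covered length was 44.9 and 157 Mb in HP against 319 and 116 Mb in NS, so the groups overlapped (log2 ratio of means 1.11, exact permutation p = 0.667). Counts in islands were lowest in HP replicate 1 (996663) and highest in NS replicate 1 (17315325). The replicates between them had 4214248 (HP replicate 2) and 4647174 (NS replicate 2). Counts in islands move with the length called and are not the sequencing depth, which is not analysed here.

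Both NS libraries had more counts per kb and more of their length in long islands than either HP library. Counts per kb of island were 22.2 and 26.8 in HP and 54.4 and 40 in NS, without overlap (log2 ratio 0.95). Exact permutation of 2 against 2 gave p = 0.333, the smallest value this design allows. The share of covered length in islands of 20 kb or more was 0.217% and 8.45% in HP and 37.0% and 21.9% in NS, and the longest islands were 27.6, 125, 291.8 and 191.8 kb. After the cut to equal covered length counts per kb were 22.2 and 32.8 in HP and 80.7 and 48.2 in NS, but the cut keeps the islands with the most counts per kb and leaves HP replicate 1 whole, so these values cannot bear on the difference. The part of sequencing depth in counts per kb and island length was not tested. CpG-rich promoter bases were covered to 3.38% and 15.7% in HP and 29.5% and 10.6% in NS (difference 10.5 percentage points, exact permutation p = 0.667). Relative to the covered share of the autosomes this was an enrichment of 1.80 and 2.39 in HP and 2.22 and 2.18 in NS, with overlap (log2 ratio 0.07, exact permutation p = 1). Without HP replicate 1 that log2 ratio was -0.12.

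**Figure D1:**
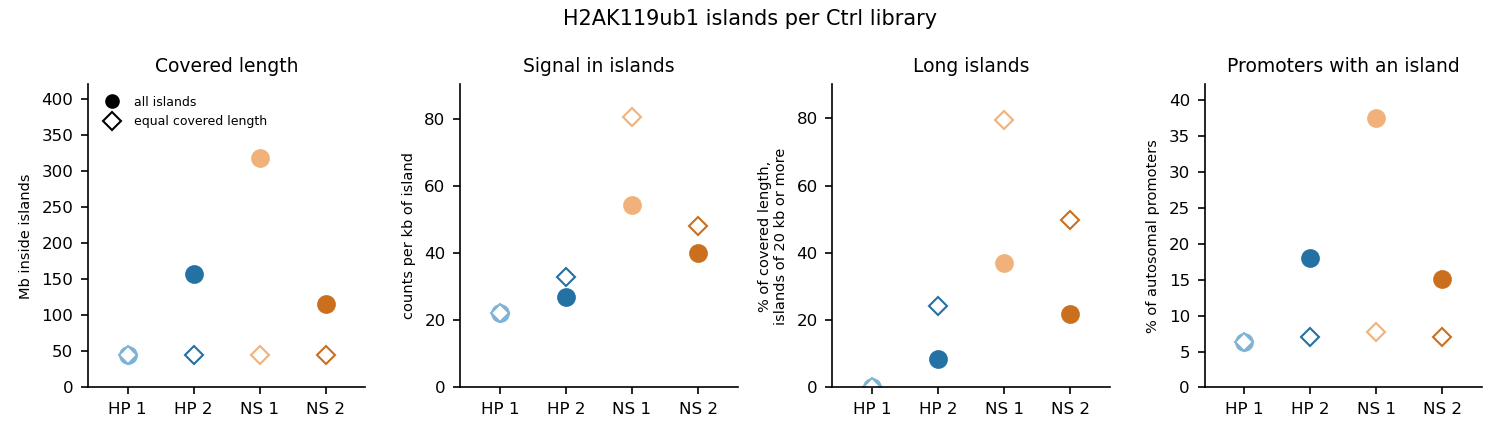
H2AK119ub1 islands in the 4 Ctrl libraries (HP, hippocampus; NS, neurosphere; 1 and 2, replicates): Mb covered, counts per kb of island, percent of covered length in islands of 20 kb or more, and percent of promoters called, with all islands (filled circles) and after the cut to equal covered length (open diamonds). Covered length overlaps between the sources, whereas counts per kb are 22.2 and 26.8 in HP and 54.4 and 40 in NS.

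Libraries of one source were not always the most alike. The Jaccard index, shared bases divided by bases covered in either library, was 0.209 for the NS pair and 0.124 for the HP pair, while HP replicate 2 and NS replicate 1 reached 0.231. At equal covered length the NS pair was the most alike (0.281), HP replicate 2 gave 0.166 and 0.174 with the NS libraries, and the HP pair gave 0.149. HP replicate 1 shared least with NS, at 0.0722 and 0.0889.

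The size of the source-specific classes depended on the length called. With all islands 985 promoters were neurosphere-specific and 78 hippocampus-specific, while at equal covered length the counts were 230 and 203. Ranking islands by total count for the cut gave 134 and 182, so the larger class changed sides. Of the 230 promoters called in neurospheres only after the cut, 122 had an island in HP replicate 2 before it. Of the 203 called in hippocampus only after the cut, 177 had an island in NS replicate 1 before it and 49 in NS replicate 2. Leaving out a library raised the neurosphere class to 1814 (HP replicate 2), 1571 (NS replicate 1) and 4581 (NS replicate 2). It raised the hippocampus class to 550 (HP replicate 1), 194 (HP replicate 2) and 457 (NS replicate 1). The shared class held 1369 promoters without HP replicate 1 and 919 without NS replicate 2. The promoters named below as members of a class belong to it with all islands and, unless stated, after the cut.

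**Figure D2:**
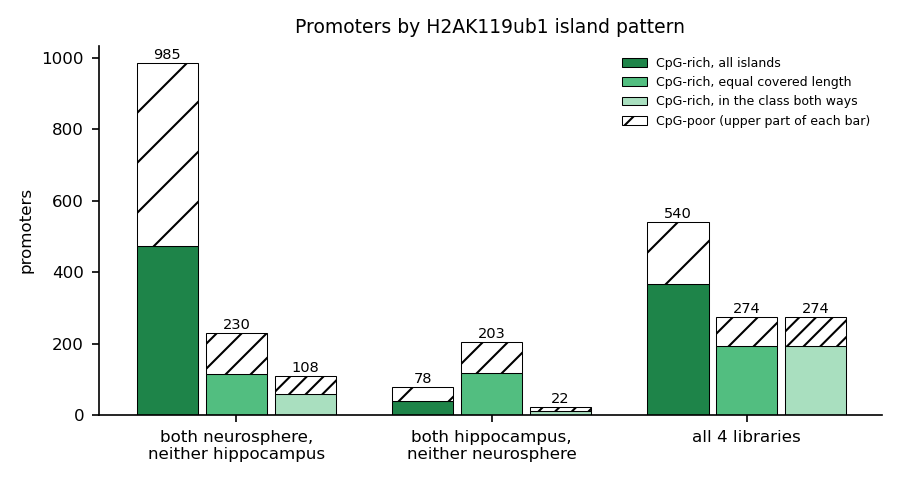
Number of autosomal promoters per island pattern (3 groups of bars), with all islands, at equal covered length, and in the class both ways, split into CpG-rich (filled) and CpG-poor (hatched). The neurosphere class holds 985 promoters with all islands and 230 at equal length, and the hippocampus class 78 and 203.

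Of the 540 promoters shared by all 4 libraries, 274 were shared in both settings. The 12 best ranked of these all belonged to transcription regulators, many of other lineages and body regions. They were fully inside islands in every library, and such ties were ranked by counts per kb. They comprised *Hoxa11* and *Hoxd12* (homeobox genes of limb and trunk patterning), *Dmbx1*, *Hmx2* and *Lhx1* (homeobox genes), *Wt1* (kidney and gonad), *Gata4* (heart and endoderm), *Foxb2*, *Sox14*, *Osr2*, *Ebf3* and *Prdm12* (a regulator of sensory neurons). At *Hoxa11* the island spanned 16.2 and 105.2 kb in HP and 22.8 and 155 kb in NS, with 27.3, 46.2, 134 and 65.8 counts per kb. At *Gata4* the islands were 9.4 and 38.2 kb in HP and 11.8 and 59.8 kb in NS. The shorter island of each pair was in replicate 1 in both sources. Islands carrying the 540 shared promoters had a median of 23.9 and 32.6 counts per kb in HP and 74.8 and 47.3 in NS, above the median over all called promoters of the same library (22.9, 27, 57.1 and 40).

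Of the 24 gene lists, 4 were shared at most of their promoters. Of 39 Hox promoters 38 were called in all 4 libraries, and 37 at equal covered length. These 39 lay in only 6 stretches of islands merged over the 4 libraries, so they are not separate observations. Of 54 other homeobox promoters 45 were shared, and 41 at equal length. Genes of GABAergic and ventral telencephalon identity were shared at 16 of 23 promoters, 15 after the cut, among them *Dlx1* and *Dlx2* (interneuron factors) and *Slc32a1* (the vesicular GABA transporter). Gata, T-box, Sox and forkhead genes were shared at 20 of 33, and at 19 after the cut. Other developmental lists were shared at a minority of their promoters. With all islands the progenitor, excitatory neuron and granule cell, and glial lists were shared at 18.2%, 18.5% and 25%. The Wnt, BMP and TGF-beta, and Hedgehog, FGF and Notch ligand lists were shared at 14.9%, 12.5% and 23.1%. Over all promoters the shared class was 2.6% and 1.32%.

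**Figure D3:**
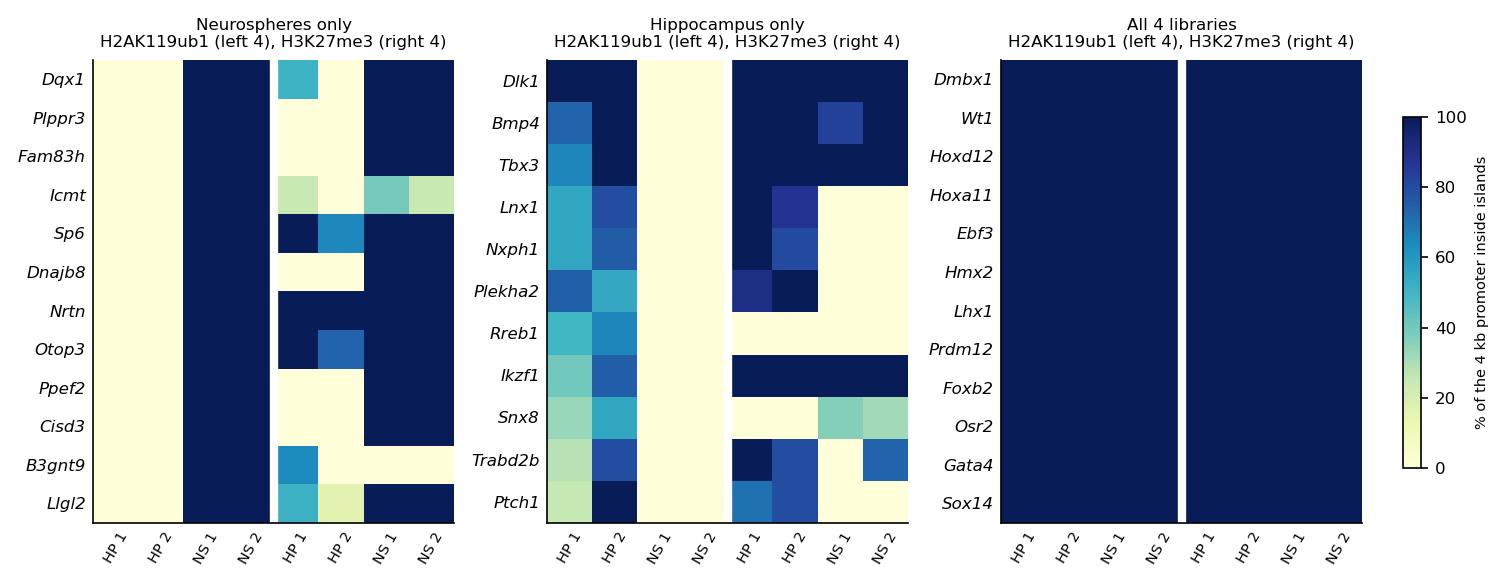
Percent of each 4 kb promoter inside islands for the best covered promoters of each class (12, 11 and 12 from left to right), with the Ctrl H2AK119ub1 libraries in the left 4 columns and Ctrl H3K27me3 libraries, which were not used to choose them, in the right 4. All 12 shared promoters carry both marks in full, and 11 of the 12 neurosphere promoters have H3K27me3 in both NS libraries.

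Islands over the 985 neurosphere-specific promoters had median lengths of 8.6 and 5.4 kb in NS replicates 1 and 2, below the 13.4 and 6.2 kb over all promoters called there. The 12 best ranked of the 108 promoters in the class both ways were fully inside islands in both NS libraries, with no overlapping island in HP. *Plppr3* (a phospholipid phosphatase-related membrane protein of neurons) lay in islands of 39.4 and 28.6 kb with 102 and 56.1 counts per kb. *Nrtn* (neurturin, a ligand of the GDNF family) lay in 45.4 and 12 kb, *Sp6* (a zinc finger transcription factor) in 51 and 34 kb, and *Llgl2* (a cell polarity gene) in 95.6 and 54.6 kb. *Dqx1*, *Fam83h*, *Icmt*, *Dnajb8*, *Otop3*, *Ppef2*, *Cisd3* and *B3gnt9* completed the set. These genes have no single common role, and 7 of the 12 promoters were CpG-poor. Over the 108 promoters in the class both ways, which were kept by counts per kb, the median island was 38.6 kb in NS replicate 1 and 17 kb in replicate 2. The nearest HP island was at a median of 48.0 kb in replicate 1 and 8.50 kb in replicate 2, and 59 of the 108 start sites had an island of HP replicate 2 within 10 kb.

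Synaptic receptor and channel genes had 7 of 39 promoters in it with all islands, against 4.73% of all promoters. They included *Grin1* and *Grin2b* (NMDA receptor subunits), *Gabrb1* and *Gabra4* (GABA-A receptor subunits) and *Kcna1* (a potassium channel). None of the 39 was hippocampus-specific, a class that held only 0.375% of all promoters. *Grin2b* was covered to 100% and 80% in NS with 63.2 and 49.1 counts per kb, and *Kcna1* to 90.4% and 29.6%. None of the 5 named here was in the class at equal covered length, where the list's share was 1 of 39 beside 1.11% of all promoters. Solute carrier genes had 25 of 358 promoters there with all islands and 5 at equal length, among them *Slc2a4* (an insulin-responsive glucose transporter) in both settings, fully covered in both NS libraries. Zinc finger genes named Zfp had 11 of 385 and 1, keratin genes 3 of 113 and 0, ribosomal protein genes 3 of 75 and 2, and olfactory receptors 6 of 1128 and 0. Keratin genes also had 2 of 113 in the hippocampus class with all islands (1.77%, against 0.375% of all promoters) and 0 at equal length.

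The 22 promoters in the hippocampus class both ways included *Dlk1*, *Dio3*, *Bmp4*, *Tbx3* and *Ptch1*, of which *Dio3* was singled out after its values were seen. *Dlk1* (a paternally expressed Notch ligand homologue) was fully covered in both HP libraries, by islands of 6.6 and 32.4 kb with 23.0 and 31.9 counts per kb, and its nearest NS islands were 390 and 478 kb away. *Dio3* (a deiodinase at the other end of the same imprinted domain) was covered to 18.3% and 88.3%, with NS islands 88.5 and 194 kb away. *Bmp4* (a ligand of dorsal midline signalling) was covered to 73.3% and 100%, and the nearest NS islands were 363 and 435 kb away. *Tbx3* (a T-box repressor) was covered to 65% and 100%, and *Ptch1* (the Hedgehog receptor) to 25.1% and 100%. The nearest NS islands were 9.53 and 578 kb from the *Tbx3* start site and 5.40 and 21.2 kb from that of *Ptch1*. That no island of either NS library touched these promoters follows from the class rule.

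The other 17 promoters in the hippocampus class both ways had more varied roles. They included *Ikzf1* (a lymphoid zinc finger factor, 40% and 75.1% covered), *Nrp1* (a semaphorin and VEGF receptor, 15.1% and 80.1%), *Pax8* (5.03% and 75.03%), *Chrm2* (a muscarinic receptor, 17.1% and 42.1%) and *Esrrg* (an orphan nuclear receptor, 15.3% and 100%), with *Lnx1*, *Nxph1*, *Plekha2*, *Rreb1*, *Snx8*, *Trabd2b*, *Ajap1*, *Apob*, *Dnah5*, *Pcdh17* and the gene model *Gm1979*. Coverage was lower in HP replicate 1 than in replicate 2 at most of them, with medians of 36.7% and 80% over the 22. *Pcdh17* was touched only at its edge, with 9.05% and 4.05% covered. Of the 22 start sites, 4 had an island of NS replicate 1 within 10 kb and 2 had one of NS replicate 2.

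Signalling lists had most calls in HP replicate 2 and NS replicate 1, which also had the most promoters called in their source. Among all promoters 6.33% and 18.1% were called in HP replicates 1 and 2, and 37.5% and 15.1% in NS replicates 1 and 2. Of 47 Wnt pathway promoters 14 and 39 were called in HP replicates 1 and 2, and 40 and 26 in NS replicates 1 and 2. Of these, 7 were called in all 4 libraries (14.9%, against 2.6% of all promoters), 4 were neurosphere-specific (8.51%, against 4.73%) and 0 hippocampus-specific (against 0.375%). The 4 were the receptors *Fzd6* and *Fzd7*, the ligand *Wnt5b* and the co-receptor *Lrp5*, of which *Lrp5* was in the class both ways, fully covered in islands of 13 and 13.4 kb. At equal covered length 4 were neurosphere-specific (*Wnt6*, *Wnt9a*, *Wnt8b* and *Lrp5*) and 4 hippocampus-specific (*Fzd10*, *Dkk3*, *Rspo2* and *Tcf7l2*), each 8.51% against 1.11% and 0.976% of all promoters. Before the cut *Wnt6*, *Wnt9a* and *Wnt8b* had an island in HP replicate 2, *Fzd10*, *Rspo2* and *Tcf7l2* had one in NS replicate 1, and *Dkk3* was called in all 4. *Lef1*, a nuclear effector of the pathway, was called in all 4 with all islands but not after the cut, with coverage of 23.3% and 70% in HP and 100% in both NS libraries. Of 24 BMP and TGF-beta promoters 12 and 19 were called in HP and 20 and 10 in NS, with *Bmp4* hippocampus-specific (1 of 24), joined at equal length by *Inhbb* and *Bmp3*, which had islands in NS replicate 1. Of 26 Hedgehog, FGF and Notch ligand promoters 9 and 24 were called in HP and 23 and 8 in NS. *Ptch1* was hippocampus-specific (1 of 26), joined at equal length by *Gli1* (a transcription factor of the pathway), which was called in all 4 before the cut. No promoter of the BMP or Hedgehog lists was neurosphere-specific in either setting.

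**Figure D4:**
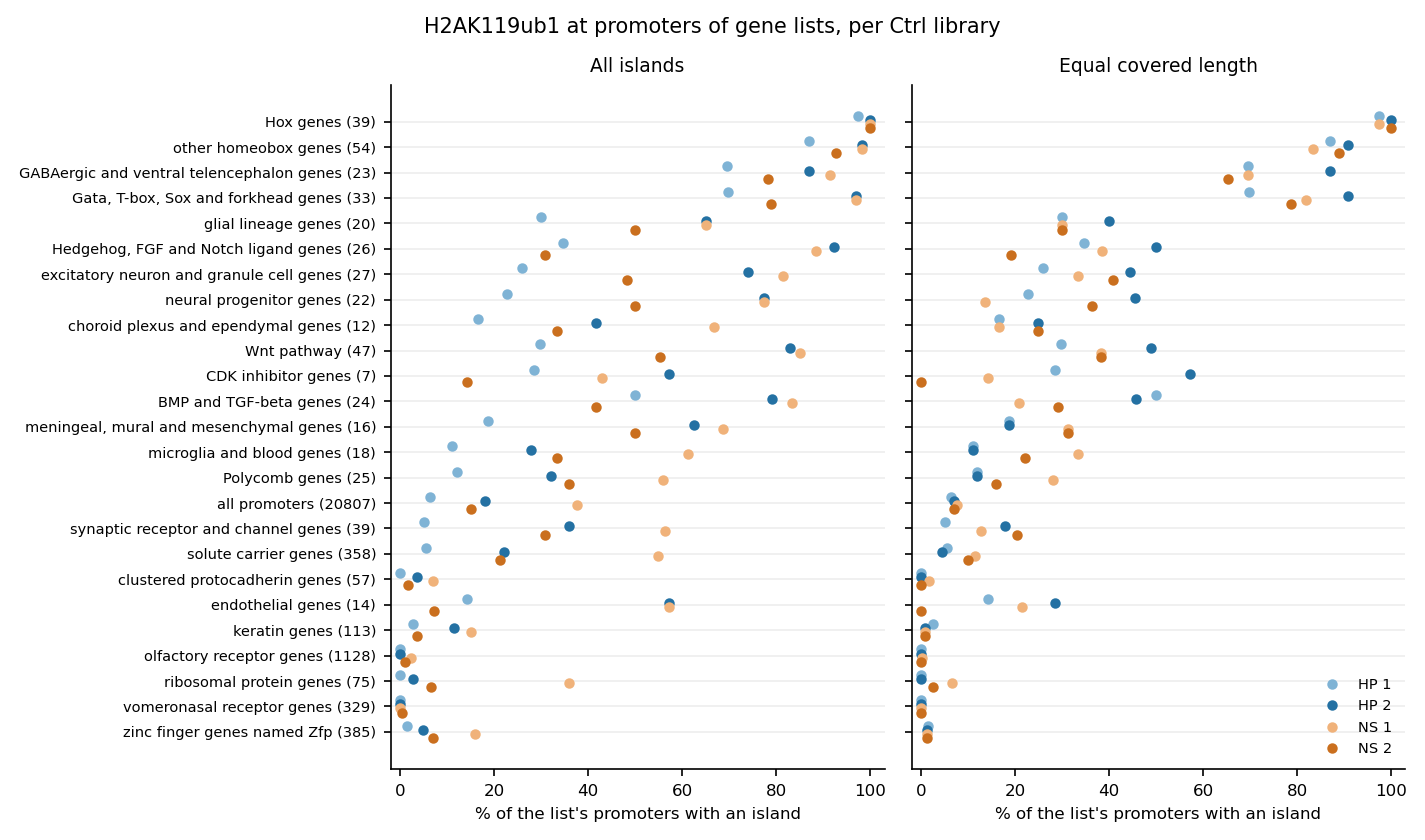
Percent of the promoters of each gene list (number of promoters in brackets) with an H2AK119ub1 island, per Ctrl library, with all islands (left) and at equal covered length (right). Of 39 Hox promoters, which lie in 6 merged stretches of islands, 38 or 39 are called in each library. At equal length at most 3 of 1128 olfactory receptor and 5 of 75 ribosomal protein promoters are called.

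Large receptor families of the nose were rarely called. Olfactory receptor promoters, which are silent outside the nose, were called at 0 and 0 of 1128 in HP and 25 and 11 in NS. Vomeronasal receptors gave 0, 0, 0 and 1 of 329 in the same order. Ribosomal protein genes, which are highly expressed, were called at 0, 2, 27 and 5 of 75, and at 0, 0, 5 and 2 after the cut. Clustered protocadherins, neuronal adhesion genes, gave 0, 2, 4 and 1 of 57. Keratin genes gave 3, 13, 17 and 4 of 113, Zfp genes 6, 19, 61 and 27 of 385, and Polycomb genes 3, 8, 14 and 9 of 25. Over all promoters the shares were 6.33%, 18.1%, 37.5% and 15.1%, and the Polycomb list lay above them in every library. The values in NS replicate 1 stood above the other libraries in the olfactory and ribosomal families, as over all promoters (1317, 3756, 7808 and 3152 called).

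Among lineage regulators, calls varied between replicates. Of 22 progenitor promoters 5 and 17 were called in HP and 17 and 11 in NS, of 27 excitatory neuron and granule cell promoters 7 and 20 in HP and 22 and 13 in NS, and of 20 glial promoters 6 and 13 in HP and 13 and 10 in NS. Among all promoters 6.33% and 18.1% were called in HP and 37.5% and 15.1% in NS, and each list lay above these shares in every library. No promoter of these lists was specific to a source with all islands, where the neurosphere and hippocampus classes held only 4.73% and 0.375% of all promoters. *Neurod1* (granule neuron differentiation) was called in all 4, covered to 31.2% and 100% in HP and 100% and 100% in NS. *Prox1* (granule cell identity) was covered to 62.2% and 100% in HP and 22.9% and 0% in NS. *Pax6* (dorsal progenitors) and *Olig2* (oligodendrocyte lineage) were covered to 57.5% and 73.6% in HP replicate 1, and fully in HP replicate 2 and NS replicate 1. They had no island in NS replicate 2. These 3 were hippocampus-specific at equal covered length only, and in NS replicate 1 their islands held 58.6, 55.7 and 61.9 counts per kb. After the cut the progenitor and glial lists held 2 hippocampus-specific promoters each and 0 neurosphere-specific ones. The excitatory neuron and granule cell list held 1 hippocampus-specific promoter (3.7%, against 0.976% of all promoters). It held 2 neurosphere-specific ones, *Tbr1* and *Rbfox3* (7.41%, against 1.11%). Before the cut *Tbr1* had an island in HP replicate 2. *Gfap* (astrocytes) was fully covered in both NS libraries, to 27.2% in HP replicate 2 and not in HP replicate 1. *Sox2* was called only in HP replicate 2, *Gad1* and *Kdm2b* only in NS replicate 1.

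Of 7 CDK inhibitor promoters 2 and 4 were called in HP and 3 and 1 in NS with all islands, so the sources overlapped. At equal covered length the counts were 2 and 4 in HP and 1 and 0 in NS, with *Cdkn1a* and *Cdkn2a* (inhibitors that hold cells in G1) in the hippocampus class, which held 0.976% of all promoters. With all islands 6.33% and 18.1% of all promoters were called in HP and 37.5% and 15.1% in NS. All promoters called at equal length numbered 1317 and 1451 in HP and 1597 and 1476 in NS. With all islands *Cdkn2a* was called in all 4 libraries and *Cdkn1a* also in NS replicate 1, so neither was hippocampus-specific.

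Marker promoters of the 2 sources and of other cell types were read as a check of the labels. A repressive mark is expected to be low at genes active in most cells, although a bulk sample can hold both states. The markers of progenitors and neurons did not give one pattern. *Fabp7* (radial glia) and *Neurod6* (excitatory neurons) had no island in any library. *Hes1* (a Notch target of progenitors) was called in all 4, *Hes5* was fully covered in HP replicate 2 and both NS libraries, and *Nes* (nestin) was covered to 66.9% in HP replicate 2 and 100% and 23.1% in NS. *Neurod2* and *Slc17a7* (excitatory neurons) were fully covered in both NS libraries and to 100% and 60% in HP replicate 2. No cell type could be read from these calls. Promoters of endothelial *Pecam1*, mesenchymal *Col3a1*, choroid plexus *Ttr* and astrocytic *Aqp4* also had none. Mesenchymal *Twist1* was fully covered in all 4, and endothelial *Kdr* was covered to 96.5% in HP replicate 2 and 100% in both NS libraries, with no island in HP replicate 1. Of 14 endothelial promoters 2 and 8 were called in HP and 8 and 1 in NS. Of 18 microglia and blood promoters 2 and 5 were called in HP and 11 and 6 in NS, with *C1qb* (a complement gene of microglia) neurosphere-specific in both settings. Of 16 meningeal, mural and mesenchymal promoters 3 and 10 were called in HP and 11 and 8 in NS, and of 12 choroid plexus and ependymal promoters 2 and 5 in HP and 8 and 4 in NS. Among all promoters 6.33% and 18.1% were called in HP and 37.5% and 15.1% in NS. The part of cell make-up in the classes was not tested.

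H3K27me3 in Ctrl libraries, which had no part in choosing the classes, was called at most shared promoters. Of the 540, 405 (75%) had an H3K27me3 island in both HP and both NS libraries, against 8.17% of all promoters. At equal covered length it was 262 of 274 (95.6%). The neurosphere class carried H3K27me3 in both NS libraries at 56.95% and in both HP libraries at 17.5%, against 22.9% and 11% of all promoters. At equal length these shares were 83.5% and 34.3%. The hippocampus class carried it in both HP libraries at 47.4% and in both NS libraries at 30.8%, and at equal length at 65.5% and 47.8%. One lysate was divided among the marks in the study's protocol for hippocampi, so libraries of different marks can share material. Labels do not tie libraries by lysate, and they list separate inputs for H3K36me2 in hippocampus.

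At single promoters the marks moved together at some genes and apart at others. *Lnx1*, *Nxph1*, *Plekha2* and *Ptch1* had H3K27me3 in both HP libraries and none in NS, as with H2AK119ub1. *Dlk1*, *Bmp4*, *Tbx3*, *Dio3* and *Ikzf1* had H3K27me3 in all 4 libraries although H2AK119ub1 was called in HP only. *Bmp4* was covered by H3K27me3 to 100% in both HP libraries and to 83.3% and 100% in NS. *Rreb1* had none in any library. Among neurosphere promoters *Plppr3*, *Fam83h*, *Dnajb8*, *Ppef2* and *Cisd3* had H3K27me3 over 100% of the promoter in both NS libraries and none in HP, whereas *Nrtn*, *Sp6* and *Otop3* had it in all 4. *Olig2* had H3K27me3 over 100% in both HP libraries and none in NS, and *Gfap* the reverse, with 100% and 97.2% in NS.

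The cKO libraries gave a second set of H2AK119ub1 islands from the same sources, from mice that lost the CxxC domain through Emx1-Cre, which is active in progenitors of the dorsal telencephalon and their descendants. Genotype therefore differs from Ctrl, and cKO HP replicate 1 covered 37.3 Mb against 247 Mb in replicate 2. Of the 985 neurosphere promoters, 452 (45.9%) had an island in both cKO NS libraries, against 19.6% of all promoters. The pattern of both NS and neither HP was kept at 212 (21.5%), against 6.39%. However, cKO HP replicate 2 had an island at 396 of the 985 (40.2%), against 25.6% of all promoters. For replicate 1 it was 29 (2.94%), against 4.15%. At equal covered length cKO HP replicate 2 had an island at 173 of the 230 neurosphere promoters (75.2%). Of the 78 hippocampus promoters 66 (84.6%) were called in cKO HP replicate 2 and 12 (15.4%) in replicate 1. Over all promoters these shares were 25.6% and 4.15%. The pattern of both HP and neither NS was seen at 9 (11.5%), against 0.461% of all promoters. *Bmp4*, *Tbx3*, *Lnx1* and *Nxph1* were among them. Of the 540 shared promoters 235 (43.5%) were called in all 4 cKO libraries, against 2.32%.

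H3K36me2 is placed by NSD enzymes and lies mainly in active or intergenic chromatin. It was called in both NS libraries at 31.5% of the 203 equal-length hippocampus promoters, against 12.3% of all promoters. The share was 7.39% for the 230 equal-length neurosphere promoters and 2.55% for the 274 shared ones. With all islands the shares were 16.7%, 14.7% and 10.6% for hippocampus, neurosphere and shared promoters. In HP libraries H3K36me2 was called in both replicates at 0% to 4.35% of each class in both settings, against 1.36% of all promoters.

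**Figure D5:**
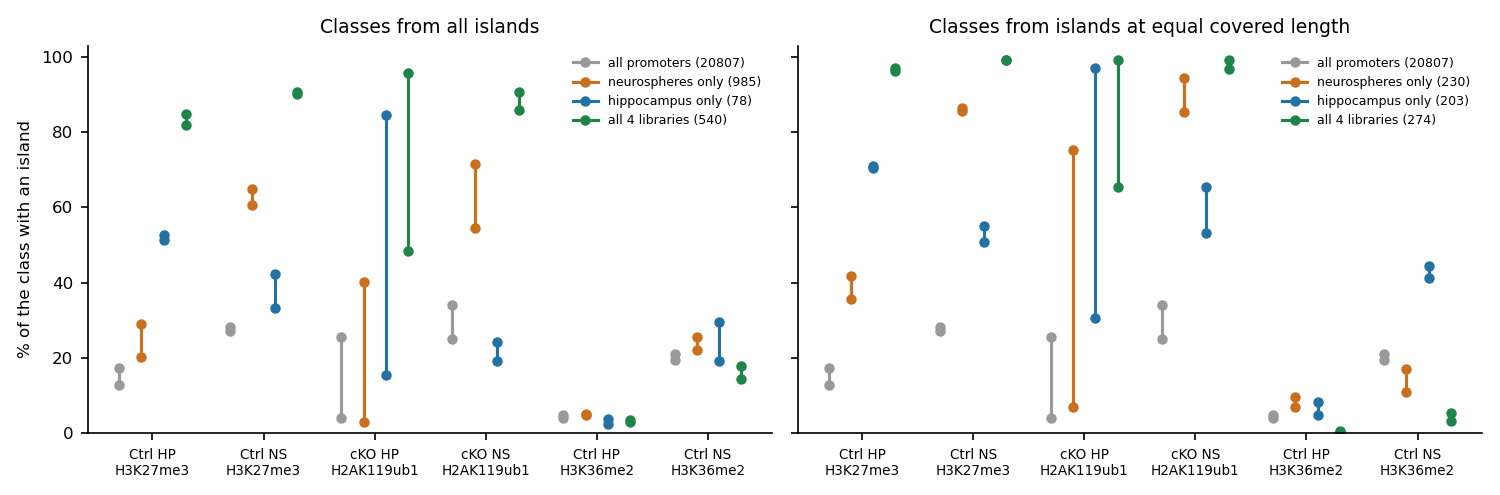
Percent of each promoter class with an island in libraries that were not used to define it (joined points, replicates 1 and 2), for classes from all islands (left) and at equal covered length (right), beside all 20807 promoters (grey). Shared promoters are highest for H3K27me3 in both sources, and cKO HP replicates lie far apart in every class.

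Counts could be compared only where all 4 libraries had an island. Merging islands gave 56848 regions, of which 2640 (4.64%, median length 22.9 kb) were called in all 4. The quasi-likelihood test of edgeR, adjusted by Benjamini-Hochberg, called 0 regions higher and 0 lower in neurospheres, with a smallest adjusted p of 0.182. At an unadjusted p under 0.05, 245 regions were higher (9.28% of those tested) and 210 lower (7.95%). The DESeq2 Wald test called 264 higher (10%) and 254 lower (9.62%). Without scaling beyond the sum of counts edgeR called 31 and 90, and the median log2 fold change over regions was -0.31 in place of 0.12. Without HP replicate 1, HP replicate 2, NS replicate 1 and NS replicate 2 it called 3, 12, 59 and 134 higher and 0, 0, 48 and 280 lower.

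The 6 regions with the smallest p, none past the threshold, differed mostly in called length. The region of *Stmn1* (a microtubule regulator of neurons), chr4:134409201-134469200, held islands of 2.2 and 3 kb in HP and 60 and 46.8 kb in NS. Its counts were 42 and 75 against 4505 and 2422, and its log2 fold change was 4.18 ± 0.68 (SE; edgeR adjusted p = 0.182). With called length as an offset the log2 fold change was 0.60 (edgeR adjusted p = 0.139). The regions of *Mycn* (a MYC family gene of progenitors), *Actn1* and *Prmt8* and a region without a promoter on chromosome 17 had the same form, with log2 fold changes of 3.24, 3.58, 3.76 and 3.56. At *Mycn* islands covered 4.8 and 6.4 kb in HP and 70.4 and 76.6 kb in NS. The sixth region, chr5:74619001-74642400, held no promoter and was lower in neurospheres, with 11.6 and 21.6 kb of islands in HP and 2 and 1.6 kb in NS (log2 fold change -3.89 ± 0.73 SE, edgeR adjusted p = 0.182). Among the 245 regions higher at unadjusted p under 0.05, 60.8% held a promoter, against 10.5% of the 210 lower and 38.9% of all tested. Their median lengths were 49.8, 16 and 22.9 kb in the same order.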

How the data were processed

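ChIP-seq islands of 4 Ctrl libraries were analysed, with groups and replicate numbers from the sample labels. Per the labels and methods, the authors trimmed reads with cutadapt, aligned them to mm10 with Bowtie2 (version 2.4.5), removed duplicates and called islands per library against input with SICER, whose version is not given in the sources used here. Each deposited file gives the count of reads in each island, not normalised, on a 200 bp grid. A place without an island has an unknown count, and total reads are not analysed here. Numbers are limited to counting and calling precision, which was lowest in HP replicate 1.

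Islands on autosomes were used. Start sites came from the GENCODE annotation of the same build (20807 promoters), and sequences and CpG counts from its genome. Covered length was equalised by keeping islands with the most counts per kb up to the length of the smallest library. Single values were compared with a two-sided exact permutation test. For regions with islands in every library, counts were compared by edgeR 4.0.16 (quasi-likelihood, TMM, R 4.3.3), at a Benjamini-Hochberg adjusted p of 0.05, with DESeq2 1.42.0 as an alternative. Named promoters were the 12 per class, in that class with all islands and after the cut, with the highest lowest coverage over the carrying libraries, then up to 4 members per list of the source-specific classes, the 6 regions with the smallest p since none passed, and 9 landmark genes. Numbered gene models were passed over in the first set, and only the first promoter of each merged region was taken. Ties in coverage were ranked by counts per kb of island relative to the library median. Other *Wnt*, BMP, imprinted, neuronal and cell cycle genes named were chosen after their values were seen. Members and all 24 gene lists were chosen with earlier results of these data known. Alternatives were islands of at least 2 kb, a cut by total count, a flank of 1 kb, at least 50% of the promoter covered, other scalings, a mean of at least 50 counts, called length as an offset, a replicate block and leaving out each library. Interval code and the count test were tested on simulated data. A few promoters that the naming rule selects are not reported here.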

Additional observations from a re-analysis of the deposited data

Results flagged for a closer look

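Chromosome X was outside the comparison, which used autosomes, and islands were present there in every library. H2AK119ub1 islands on chromosome X numbered 331 in HP replicate 1 and 13 in HP replicate 2, against 2879 in NS replicate 1 and 2495 in NS replicate 2. They made up 1.91% and 0.0492% of all islands in HP and 6.25% and 10.7% in NS. HP replicate 2 had more islands in all than HP replicate 1 or NS replicate 2 (26417, 17364 and 23418), yet the fewest on X. The sex of the animals behind each library was not analysed here, and the cause was not tested.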

How the results depend on the processing

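Directions of covered length, counts per kb and CpG-rich promoter coverage held in every alternative tried (for counts per kb the cut to equal covered length selects on the same value), but no exact permutation test of 2 against 2 can pass 0.05, so this says nothing about significance. Leaving out each library in turn gave log2 ratios of 0.20 to 2.28 for covered length, 0.71 to 1.15 for counts per kb and -0.12 to 0.29 for CpG-rich enrichment, and differences of 1.02 to 20.0 percentage points for CpG-rich coverage. Only the enrichment changed sign, without HP replicate 1 (-0.12). The classes of 985, 78 and 540 promoters (neurospheres only, hippocampus only, shared) held 230, 203 and 274 at equal covered length by counts per kb, 134, 182 and 82 when ranked by total count, and 583, 32 and 239 when at least 50% of the promoter had to be covered. They ranged from 1043 to 4581, 107 to 550 and 569 to 1369 when 1 library was left out. Islands of at least 2 kb and a 1 kb flank left each class within 1.5 times its count. Regions past the edgeR threshold, 0 higher and 0 lower, became 264 and 254 with DESeq2, 31 and 90 without scaling, and 3 and 0 of 476 at equal covered length, and ranged from 3 to 134 and 0 to 280 when 1 library was left out. A lone library of a source is then assumed to vary like the pair of the other. With the replicate number as a block the counts were 0 and 0 (at unadjusted p under 0.05, 154 and 174). The labels do not tie equal numbers of the sources together, and the differences between replicates correlated at -0.30 across regions. With the pairing crossed, an alternative chosen after seeing the data, edgeR called 132 and 89. Other scalings, the count minimum (which removed no region) and the length offset left 0 and 0. Of 80 named promoters, coverage differences changed sign at 2, without NS replicate 2. Members of a source-specific class cannot change sign, since the other source has no coverage there. The best ranked shared promoters, fully covered in every library, have no difference to reverse. The count of 2 therefore does not measure how stable the named promoters are. Leaving out 1 library gave -78.8 to 21.2 percentage points for *Pax6* and -86.8 to 13.2 for *Olig2*. HP replicate 1 limits every class that needs both HP libraries. The causes of these changes were not tested.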
